A study of Mus musculus with 6 samples.

Results

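Potassium channel genes of mouse embryonic fibroblasts (MEFs) were examined in RNA-Seq data of 3 WT and 3 Anp32e null (*Anp32e*-/-) libraries. Members were all protein-coding genes whose symbol starts with Kcn, apart from 1 gene, which left 93 of the 20769 protein-coding genes in the table. Each gene was represented by the transcript with the highest mean. ANP32E is a histone chaperone that removes the histone variant H2A.Z from chromatin. Both groups were primary MEFs from embryos, cultured in DMEM with 10% serum at a passage below 8 and collected 1 day after seeding. No label ties a library to an embryo or a culture of its own, and no treatment was given to either group.

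Potassium channels let potassium leave the cell along its gradient and so hold the membrane potential below zero. Their pore-forming subunits fall into voltage-gated (Kv) channels, channels opened by intracellular calcium or sodium, inward rectifiers (Kir) that pass current best near the resting potential, and two-pore-domain (K2P) channels that carry a background leak. Auxiliary subunits form no pore of their own and change the gating, trafficking or stability of the channels they join. Fibroblasts do not fire action potentials, and calcium-activated and leak channels are among those known to set their membrane potential.

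The deposited table lists 1 mean normalized count per transcript over all 6 libraries. Its other columns are the comparison of the genotypes made by the authors, and they were not used, so no difference between *Anp32e*-/- and WT MEFs is given. The deletion could not be checked library by library either, since *Anp32e* has a mean of 2189.9 and no values by library. A normalized count is a number of reads divided by the size factor of its library, which corrects for sequencing depth. Means of at most 100 allowed the whole reads of each of the 6 libraries to be recovered, as described under the processing, and the libraries are called A to F in falling order of size factor, from 1.13 to 0.909. The table does not say which library is which genotype. The values by library are therefore those of 6 libraries in no group, and p-values were not computed.

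The means of all protein-coding genes summed to 48964477 normalized counts, of which the members held 0.00853%. Fibroblast markers were present in the libraries, with 11 of 12 at a mean of at least 10 and *Vim*, *Fn1*, *Col1a1* and *Col1a2* at 23592 to 330695, while *Lum* was at 1.33. All 6 smooth muscle genes were also present, led by *Acta2* at 415857. All 5 mesothelial markers and 5 of 6 epithelial markers reached 10, as did 4 of 8 neuronal, 2 of 6 endothelial, 2 of 6 macrophage and 2 of 6 skeletal muscle markers. In these last 4 lists the levels were mixed. The neuronal *Snap25*, endothelial *Emcn*, macrophage *Tyrobp* and skeletal muscle *Myod1* had no reads. The highest means of the same lists were 1656 for *Map2*, 2958 for *Kdr*, 257 for *Cd68* and 67.6 for *Ttn*. In such bulk samples, fewer cells of a type and less RNA per cell cannot be told apart.

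Most potassium channel genes were near silent in these MEFs. Of the 93 genes, 18 (19.4%) had no reads in any library, 16 had a mean under 1, 33 had a mean of 1 to 10, and 26 (28%) reached 10 normalized counts or more. Among all protein-coding genes, 19.9% had no reads and 63% reached 10. A mean of at least 50 was reached by 16 members (17.2%), against 56.3% of protein-coding genes. The members thus had a share of genes without reads like that of the other genes and a larger share at a low level. Their median level among the 26 was 18.2 normalized counts per kilobase of exon, with quartiles of 6 and 45.9, whereas the protein-coding genes with a mean of at least 10 had a median of 377. No potassium channel gene reached that level. The signal was concentrated in few genes, since *Kcnab1* alone held 19.7% of the summed means of the members, the first 3 genes 48.9% and the first 10 genes 83%.

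**Figure D1:**
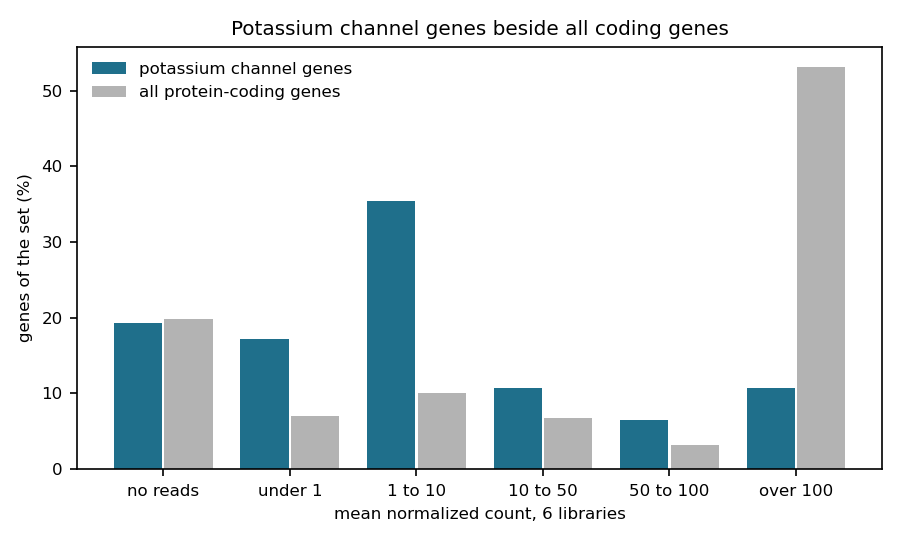
Bars give the percent of genes (vertical axis) in each range of the mean normalized count over 6 libraries (horizontal axis) for the 93 potassium channel genes and the 20769 protein-coding genes. The bars for no reads are alike at 19.4% and 19.9%, and the bar over 100 is short for potassium channel genes, with 10 of 93.

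Levels of different genes are compared per kilobase of exon. A mean is not corrected for length, so ranks by mean and shares of summed means describe reads and not levels. Where a gene has several transcripts, these share reads: 40 members have more than 1 transcript, and 15 of those have transcripts with different means. A level per kilobase then depends on the transcript chosen. *Kcnk2* had a mean of 267 with 1642 bases of exon and 257 with 3297, and *Kcnab2* had 285 with 3574 and also with 1576. The exons of 27 members, 13 of them with a mean of at least 10, overlap those of another gene, mostly an antisense RNA. The kit marks strand, and the study's methods name default settings, under which featureCounts ignores strand. Those settings also leave out reads that several transcripts share, whereas transcripts of 1 gene share reads here, so that the strand setting in use stays uncertain and reads of such overlapping genes may not be told apart.

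**Figure D2:**
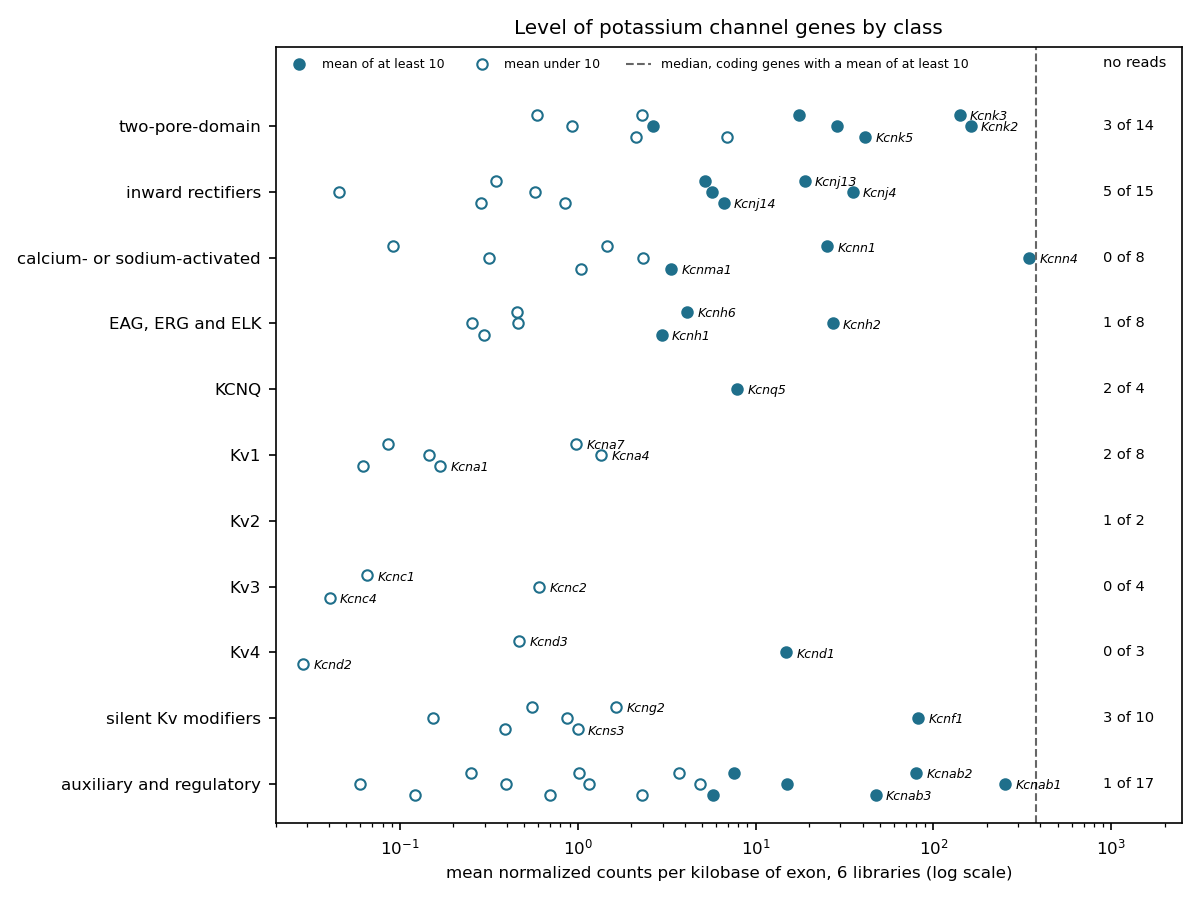
Each circle is a potassium channel gene with reads, all but a few of which are drawn, placed by its mean normalized counts per kilobase of exon over 6 libraries (horizontal log axis) in the row of its channel class, filled for a mean of at least 10. The dashed line marks the median of 377 of protein-coding genes with a mean of at least 10, the right column counts members without reads, and *Kcnn4*, at 345, stands closest to the line.

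Two-pore-domain channels, which carry leak currents, were the pore-forming class with the most genes over the minimum, at 6 of 14, and held 26.7% of the summed means. *Kcnk2*, which encodes the TREK channel opened by membrane stretch and lipids (chr1:189207930-189402782, minus strand), had a mean of 267 and a level of 162 per kilobase. That level was computed with a transcript of 1642 bases and would be lower with its longer transcript of 3297 bases. *Kcnk3*, the acid-sensitive TASK channel (chr5:30588170-30625270, plus strand), had a mean of 535 and a level of 140.4 per kilobase. *Kcnk5*, a TASK relative opened by alkaline pH (chr14:20140057-20181782, minus strand), had a mean of 139.6 and a level of 41.2 per kilobase. These 3 means are over the limit of the recovery and have no spread between libraries. Exons of *Kcnk2* and *Kcnk3* overlap genes on the opposite strand (*A430027H14Rik* and *Gm9899*). *Kcnk9*, *Kcnk16* and *Kcnk18* had no reads, and *Kcnk16* lies 79592 bases from *Kcnk5*.

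Among K2P genes with values by library, *Kcnk1* and *Kcnk6*, which encode the weakly inward rectifying TWIK channels, went opposite ways. *Kcnk1* (chr8:125993655-126030685, plus strand) had 17.7, 20.9, 80.8, 22.3, 122 and 121 normalized counts in libraries A to F. Libraries C, E and F were high and A, B and D low, with no overlap, and the highest library was 6.89 times the lowest (95% interval of counting error 4.26 to 11.7). For this and all later ratios, the highest and lowest library were picked by their values. The intervals do not allow for that choice. Exons of *Kcnk1* overlap the antisense RNA *Gm45875*. *Kcnk6* (chr7:29221928-29232522, minus strand) had 82.2, 121, 47.7, 108, 42.8 and 28.6. Here A, B and D were the high libraries, and the highest was 4.22 times the lowest (2.75 to 6.71). *Kcnk10*, a second stretch-sensitive TREK channel, had 35.4, 24.7, 12.7, 23.3, 8.55 and 14.3, again highest in A, B and D. Its ratio of the highest to the lowest library was 4.14 (1.91 to 10.2). Of the other K2P genes, *Kcnk7* had a mean of 8.51 and *Kcnk12*, *Kcnk4* and *Kcnk13* had means of 2.85 to 4.18, while *Kcnk15* had 4 reads, all in library E.

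The epithelial marker *Cdh1* (E-cadherin) had 7.96, 3.8, 148, 6.08, 112 and 124 normalized counts in libraries A to F, high in the same libraries as *Kcnk1*. Of the 6 epithelial markers, 4 had values by library, and their sums were 26.5, 54.2, 193, 55.7, 172 and 166. Most of the sum came from *Cdh1* in C, E and F, but not in A, B and D. The other 3 did not separate C, E and F from A, B and D: *Krt8* had 8.84, 24.7, 29.2, 33.4, 40.6 and 23.1, *Cldn4* was lowest in E, and *Epcam* was at 0 in D and 18.2 in E. *Krt18* and *Krt19*, with means of 1106 and 7400.1, have none. The part of epithelial cells in the values of *Kcnk1* was not tested.

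Inward rectifiers reached the minimum in 5 of 15 genes, and none had a mean over 100. *Kcnj4*, a strong rectifier of the classical Kir family (chr15:79480226-79512511, minus strand), led the class with a mean of 75.6 and a level of 35.1 per kilobase. Its libraries A to F had 86.7, 101, 46.7, 105, 58.8 and 55 normalized counts. A, B and D were above C, E and F, and the highest library was 2.25 times the lowest (1.59 to 3.24). *Kcnj2*, the strong rectifier that clamps the resting potential of muscle and other cells (chr11:111066164-111076825, plus strand), had 52.2, 49.5, 13.6, 42.6, 7.48 and 4.4. A, B and D were high without overlap, and the highest was 11.9 times the lowest library, with a wide interval (4.39 to 44.9) since the lowest held 4 reads. *Kcnj16*, its neighbour 38195 bases away, had 1 read in all.

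*Kcnj13*, an inward rectifier of transporting epithelia, had 29.2, 17.1, 31.1, 27.4, 21.4 and 17.6 normalized counts in libraries A to F at a level of 18.9 per kilobase. These values overlapped within counting error, with a ratio of the highest to the lowest library of 1.82 (0.991 to 3.44). Its exons lie opposite those of *Gigyf2*, a protein-coding gene. *Kcnj15* had 29.2, 33.3, 31.1, 32.4, 15 and 9.9, so that 4 libraries were near 30 and only E and F were lower (ratio 3.36, 1.58 to 7.95). *Kcnj14*, another strong rectifier, had 23, 11.4, 21.4, 4.05, 29.9 and 16.5 at a level of 6.61 per kilobase, and its order of libraries was not that of *Kcnj4* and *Kcnj2*. The pore genes of ATP-sensitive channels, *Kcnj8* and *Kcnj11*, had no reads, and neither did their sulfonylurea receptor partners *Abcc8* and *Abcc9*. *Kcnj1*, *Kcnj3* and *Kcnj5* had no reads either, and *Kcnj9*, *Kcnj10*, *Kcnj6*, *Kcnj12* and *Kcnj16* had means of 0.169 to 3.27.

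The class of calcium- or sodium-activated channels held the gene with the highest level of all members. *Kcnn4*, the intermediate-conductance channel opened by calcium through calmodulin and known from proliferating fibroblasts and lymphocytes (chr7:24369826-24385212, plus strand), had a mean of 686 and a level of 345 per kilobase. It ranked at the 67.1 percentile of protein-coding genes by level. *Kcnn1*, a small-conductance relative (chr8:70843158-70865691, minus strand), had a mean of 102 and a level of 25.3 per kilobase, computed with the length of another of its transcripts. The other 2 small-conductance genes, *Kcnn2* and *Kcnn3*, had means of 0.338 and 3.03. The sodium-activated *Kcnt1* and *Kcnt2* had means of 5.55 and 8.29, and the sperm channel gene *Kcnu1* 1.12.

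*Kcnma1*, the pore of the large-conductance BK channel opened by calcium and voltage together, had a mean of 11.8 and a level of 3.35 per kilobase. The transcript used, 1 of 22, has an exon length of 3516 bases for a coding length of 3513 and so nearly no untranslated part. Another transcript, with 12094 bases of exon, had a mean of 7.03, under the minimum of 10. For the transcript used, libraries A to F had 1.77, 7.61, 31.1, 5.07, 6.41 and 18.7 normalized counts. C and F were the high libraries, and the ratio of C to A was 17.6 with a wide interval (4.49 to 152), as A held 2 reads. The smooth muscle BK beta subunit *Kcnmb1* (chr11:33962955-33973641, plus strand) had a higher mean over all libraries than the pore gene, at 63.4, and a level of 15.1 per kilobase. Its normalized counts were 146, 116, 3.89, 110.4, 0 and 4.4 in libraries A to F. In C, E and F the pore gene *Kcnma1* had the higher normalized counts, so the order of the means came from A, B and D. A, B and D were high and C, E and F near 0, and A was at least 45.5-fold higher than E when E is set to the floor of 3 reads. Smooth muscle markers all have means over 100 and no values by library, so their part in this pattern was not tested.

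The remaining BK subunits were low. *Kcnmb4*, the neuronal beta subunit, had 14.1, 4.76, 4.87, 11.1, 10.7 and 16.5 normalized counts, and the intervals of the single libraries overlapped. The ratio of its highest to its lowest library was 3.47, with an interval wholly above 1 (1.2 to 12.2). Its exons overlap the antisense RNAs *Kcnmb4os1* and *Kcnmb4os2*. *Kcnmb2* and *Kcnmb3* had means of 0.356 and 1.2. None of the 4 BK gamma subunit genes reached a mean of 10, with *Lrrc26* at 1.09, *Lrrc55* at 0.654 and *Lrrc38* and *Lrrc52* without reads. *Kcnmb1* lies within the span of *Kcnip1*, whose mean was 4.23.

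EAG, ERG and ELK channels, the voltage-gated family with a cyclic-nucleotide-binding-like domain, reached the minimum in 3 of 8 genes. *Kcnh2*, the ERG channel known from repolarization of the heart (chr5:24319589-24351684, minus strand), had a mean of 114 and a level of 27.1 per kilobase. Its second, shorter transcript had a mean of 91.7 and 66.3, 76.1, 115, 83.1, 121 and 89.1 normalized counts in libraries A to F, highest in E and C. *Kcnh1*, the EAG channel found in brain and in many tumours (chr1:192189144-192510159, plus strand), had 7.07, 0, 34.1, 9.12, 35.3 and 41.8. C, E and F were high without overlap, and F was at least 14.7-fold higher than B at the floor of 3 reads. *Kcnh6*, a second ERG gene, had 14.1, 24.7, 16.5, 8.1, 2.14 and 17.6, with E the lowest (ratio of B to E 11.6, 2.9 to 101). *Kcnh8* had no reads, *Kcnh3*, *Kcnh4* and *Kcnh7* had means of 1.72 to 3.95, and *Kcnh5* had 2 reads in each of 3 libraries.

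Of the 4 KCNQ genes among the members, whose channels open slowly below the firing threshold of neurons, only *Kcnq5* reached the minimum. It (chr1:21398399-21962650, minus strand) had a mean of 54.7 and a level of 7.85 per kilobase, with 97.3, 82.7, 36, 67.9, 21.4 and 23.1 normalized counts in libraries A to F. A, B and D were above C, E and F, and A was 4.55 times E (2.81 to 7.74). The noncoding *Gm26580* lies opposite its exons. *Kcnq3*, which takes part in the neuronal M-current, had no reads.

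The classical Kv families were nearly without signal. No gene of Kv1 (8 genes), Kv2 (2) or Kv3 (4) reached a mean of 10. These families hold the delayed rectifiers and fast channels of nerve and muscle. *Kcna4* had a mean of 6.47 and *Kcnc2* of 1.79, and 11 of the 12 reads of *Kcnc2* were in library A. *Kcna1* and *Kcna7* had means of 0.681 and 2.15, and *Kcnc1* of 0.507. *Kcna3*, *Kcna5*, *Kcna6* and *Kcnc4* had means of 0.147 to 0.853, and *Kcna2*, *Kcna10* and *Kcnb2* had no reads. Among the 3 Kv4 genes, which carry fast inactivating A-type currents, *Kcnd1* on chromosome X (chrX:7823759-7838278, plus strand) stood out with a mean of 78.7 and a level of 14.9 per kilobase. It had 46, 55.2, 108, 59.8, 93 and 110 normalized counts in libraries A to F. C, E and F were above A, B and D, and F was 2.39 times A (1.69 to 3.41). The study's methods left X and Y genes out of the differential expression analysis, though *Kcnd1* is among the deposited values. *Kcnd2* had 1 read in all and *Kcnd3* a mean of 3.36.

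Several subunits that act on Kv channels had high levels for this set of genes. The 3 Kv beta subunits, cytoplasmic proteins with an oxidoreductase fold that bind Kv1 channels, all had means over 100. *Kcnab1* (chr3:64949212-65378225, plus strand) had a mean of 823 and a level of 254 per kilobase, lower than that of *Kcnn4*, and its other transcripts had means of 624 and 623. *Kcnab2* (chr4:152390744-152477549, minus strand) had a mean of 285 and a level of 79.8 per kilobase, and *Kcnab3* (chr11:69326258-69333041, plus strand) a mean of 120.4 and a level of 47.4. The highest level of a Kv1 gene was 1.35 per kilobase, for *Kcna4*. Exons of all 3 beta subunit genes overlap another gene, for *Kcnab1* and *Kcnab3* on the opposite strand and for *Kcnab2* on the same strand.

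*Kcnf1*, a silent subunit that forms channels only together with Kv2 subunits (chr12:17172100-17176888, minus strand), had a mean of 393 and a level of 82 per kilobase. The Kv2 gene *Kcnb2* had no reads, whereas *Amigo1*, the membrane protein that accompanies Kv2 channels in neurons, had a mean of 299. *Kcnf1* held nearly the whole signal of its class: the 10 silent subunits summed to 407, of which *Kcng2*, *Kcns2*, *Kcns1*, *Kcns3* and *Kcnv2* had means of 1.98 to 4.64, *Kcng1* had 2 reads in all, and *Kcng3*, *Kcng4* and *Kcnv1* had no reads. The levels of *Kcng2* and *Kcns3* were 1.65 and 1 per kilobase.

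Among the calcium-binding KChIP proteins, which bind Kv4 channels, *Kcnip4* had 3.54, 13.3, 16.5, 10.1, 28.9 and 9.9 normalized counts in libraries A to F, with E the highest and A the lowest (ratio 8.16, 2.84 to 32.1). Exons of *Kcnip4* overlap the protein-coding gene *5730480H06Rik* and the antisense RNA *Gm20700* on the opposite strand. *Kcnip3*, which is also known as a transcriptional repressor, had a mean of 6.3, and *Kcnip2*, the main KChIP of the heart, of 1.16. The Kv4 partners *Dpp6* and *Dpp10* had means of 0.317 and 0.453. The single-span KCNE subunits were near 0 throughout, with *Kcne1* without reads and *Kcne1l*, *Kcne2*, *Kcne3* and *Kcne4* at means of 0.159 to 1.57. *Kcnrg*, a regulator of Kv1 assembly, had a mean of 6.52.

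**Figure D3:**
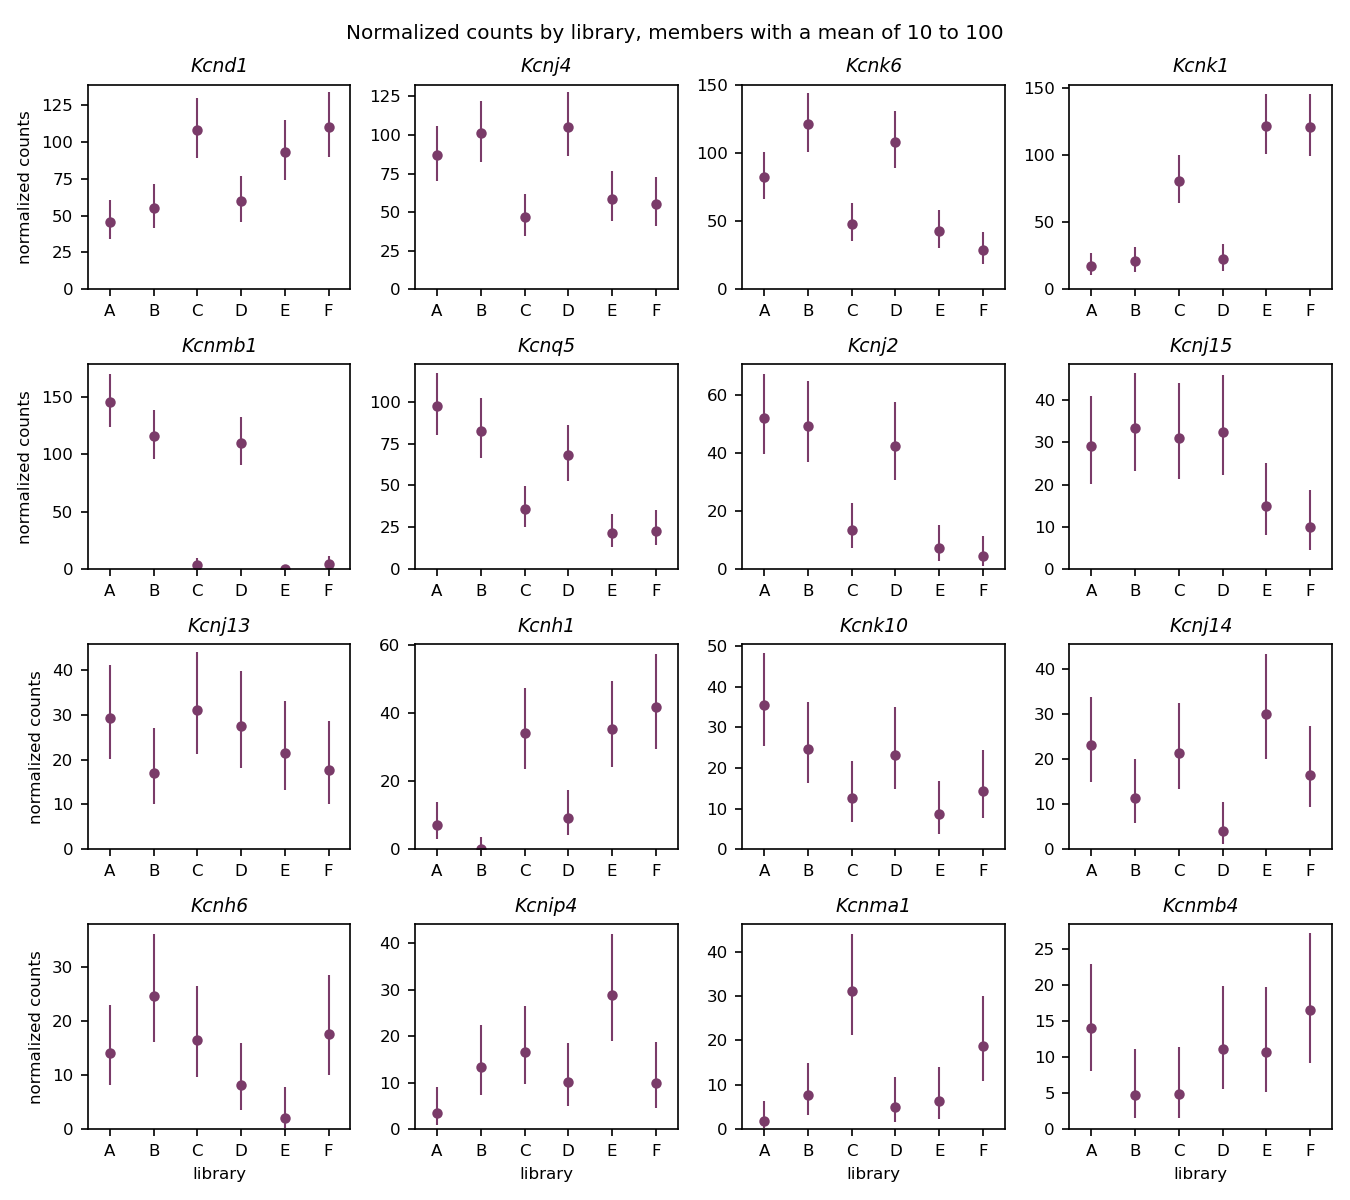
Points give the normalized counts of 16 potassium channel genes with a mean of 10 to 100 in libraries A to F, and lines their exact Poisson 95% intervals, which cover counting error only. *Kcnmb1*, *Kcnj2* and *Kcnq5* are high in A, B and D, *Kcnk1*, *Kcnh1* and *Kcnd1* in C, E and F, and the intervals of *Kcnj13* and *Kcnmb4* overlap across all libraries.

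Whether the spread between libraries was particular to these genes was read against all genes. The interval of the highest library lay wholly above that of the lowest in 24 of 65 recovered members (36.9%), against 38.5% of the 5541 recovered protein-coding genes. For means of at least 10 it did so in 14 of 16 members (87.5%), against 74.2% of 1983 genes. The share was near the background over every recovered member and higher than the background at means of at least 10. Reads seem to have been counted per mate, because 369 of the 532 genes with exactly 2 reads (69.4%) had both in 1 library, while 16.8% would by size factor alone. The intervals are then too narrow. With counts halved, 12 of 65 members were apart (18.5%), against 16.7% of all recovered genes. All 12 were among the 16 members with a mean of at least 10 (75%), against 42.6% of genes at such means, so that these members were apart more often than the background, a difference that was not tested. *Kcnj15* and *Kcnk10* were the members with a mean of at least 10 that were no longer apart.

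The 49 recovered members with a mean under 10 had 1 to 51 reads in all 6 libraries together. Reads were found in every library for 12 of them, in 2 to 5 libraries for 26 and in 1 library for 11. The interval of the highest library was above that of the lowest in 10 of the 49, and in 0 with halved counts. A library without reads was set to a floor of 3 reads, or 2.65 to 3.3 normalized counts, and the upper end of its exact 95% interval was 3.26 to 4.06.

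**Figure D4:**
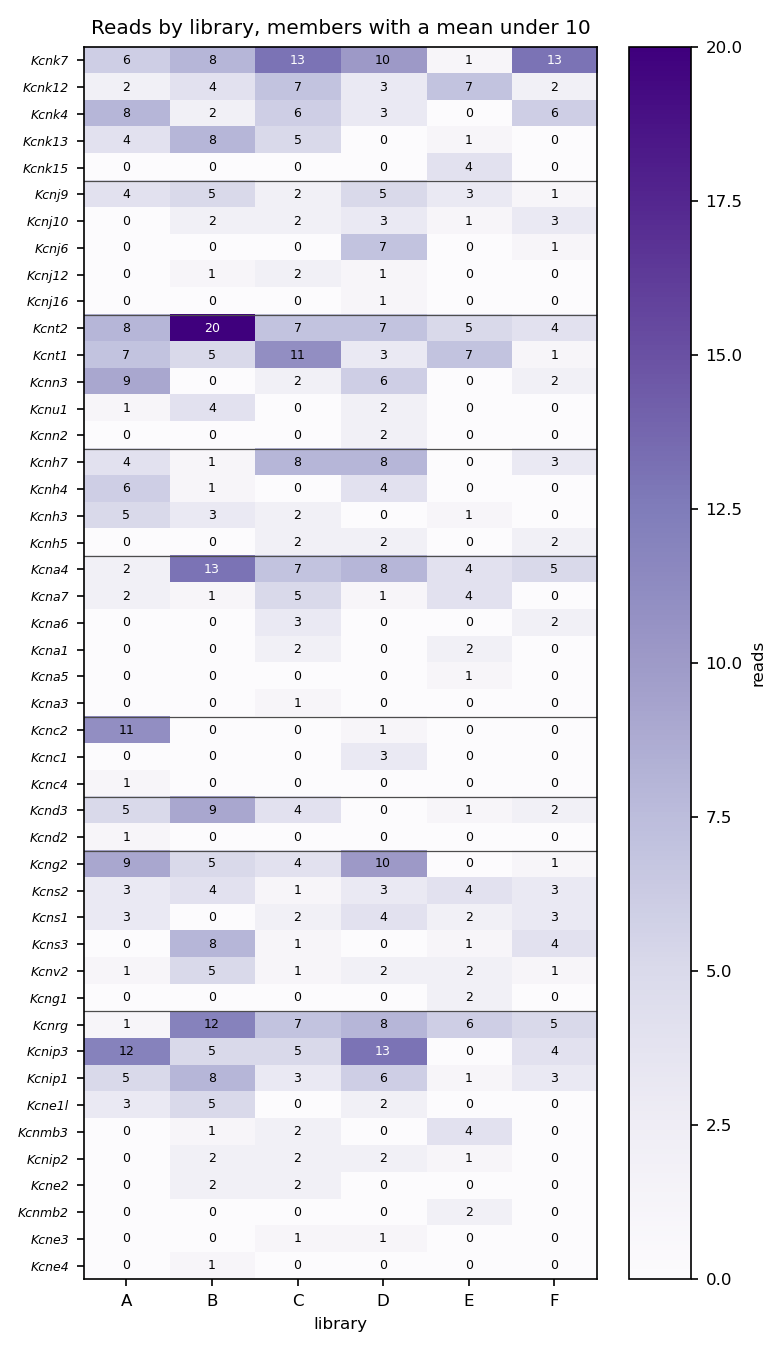
Each cell gives the reads of a potassium channel gene with a mean under 10 (row, grouped by channel class) in libraries A to F (columns), with darker cells for more reads. The highest cell is *Kcnt2* in library B with 20 reads, and *Kcnc2* has 11 of its 12 reads in library A.

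Promoter sequences are shown for 4 genes that were picked after their values were seen, because they had the largest ratios between libraries among the members split without overlap into A, B and D and C, E and F. *Kcnmb1* and *Kcnj2* were high in A, B and D, and *Kcnk1* and *Kcnh1* in C, E and F. Each is a window of 300 bases, most of it before a RefSeq transcript start and its end just past it, on GRCm38.p6, 5′ to 3′ on the plus strand, with the dinucleotide CG in capitals. They are the regions chr11:33962763-33963062, chr11:111065914-111066213, chr8:125994852-125995151 and chr1:192190527-192190826.
Kcnmb1: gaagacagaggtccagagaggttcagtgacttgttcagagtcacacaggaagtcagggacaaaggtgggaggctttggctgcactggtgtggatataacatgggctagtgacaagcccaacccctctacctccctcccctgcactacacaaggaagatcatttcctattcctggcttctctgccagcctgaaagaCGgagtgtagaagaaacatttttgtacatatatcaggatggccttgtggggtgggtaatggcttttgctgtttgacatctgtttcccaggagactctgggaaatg
Kcnj2: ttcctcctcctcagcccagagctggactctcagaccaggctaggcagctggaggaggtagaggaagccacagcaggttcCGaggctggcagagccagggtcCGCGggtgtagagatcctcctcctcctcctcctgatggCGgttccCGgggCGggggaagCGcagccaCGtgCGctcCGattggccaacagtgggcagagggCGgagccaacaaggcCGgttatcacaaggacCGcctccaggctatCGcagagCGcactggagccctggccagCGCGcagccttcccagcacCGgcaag
Kcnk1: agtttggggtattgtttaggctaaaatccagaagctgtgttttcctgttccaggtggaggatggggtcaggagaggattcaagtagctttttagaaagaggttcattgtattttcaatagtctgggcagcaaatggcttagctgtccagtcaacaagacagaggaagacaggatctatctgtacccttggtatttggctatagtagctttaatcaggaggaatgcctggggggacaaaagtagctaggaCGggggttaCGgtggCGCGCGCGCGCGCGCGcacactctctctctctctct
Kcnh1: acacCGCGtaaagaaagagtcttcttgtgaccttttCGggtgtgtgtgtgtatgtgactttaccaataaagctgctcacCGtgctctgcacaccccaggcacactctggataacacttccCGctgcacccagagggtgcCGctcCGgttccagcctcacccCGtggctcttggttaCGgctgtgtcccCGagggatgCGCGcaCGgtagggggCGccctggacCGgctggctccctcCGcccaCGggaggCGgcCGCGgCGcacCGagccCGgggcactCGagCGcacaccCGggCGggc

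The genes that were high in the same libraries did not share a CG content. CG occurred 1 time in the promoter of *Kcnmb1* and 18 times in that of *Kcnj2*, 10 times in that of *Kcnk1*, mostly in 1 CG repeat, and 27 times in that of *Kcnh1*. The motifs searched on both strands were the TATA box as TATAAA, the CCAAT box as CCAAT and the GC box as GGGCGG, and a CCAAT may share its first letters with a GC box of the opposite strand. *Kcnj2* and *Kcnh1* held CCAAT and GGGCGG, and *Kcnmb1* and *Kcnk1* held none of the 3. Among all 32851 promoters of the RefSeq table, 13.6% held TATAAA, 37.4% CCAAT and 35.7% GGGCGG. Of the 69 members with a promoter, counting a gene if any of its promoters held the motif, 7.25% had TATAAA, 36.2% CCAAT and 62.3% GGGCGG, against 14.6%, 42.6% and 51.2% of 16633 protein-coding genes. The median of the highest CG count per gene was 18 in the 21 members with a mean of at least 10 and 11.5 in the 48 members under it. For all protein-coding genes it was 15.

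The leading genes of the sodium-potassium pump and of the cotransporters had higher levels than any potassium channel gene. The sodium-potassium pump, which builds the potassium gradient, had 3 of 7 subunit genes with a mean of at least 10. Among them *Atp1b3* was at 2636 and *Atp1b1* at 1009 normalized counts per kilobase, whereas *Atp1a4* and *Atp1b2* had means of 0.162 and 1.53. Cation-chloride cotransporters reached the minimum in 5 of 6 genes, led by *Slc12a4* at 1248 per kilobase. *Slc12a5*, the neuronal chloride extruder, was at 1.75 per kilobase, and *Slc12a1*, the kidney cotransporter, had a mean of 1.41. Of the 4 HCN genes, whose cation channels open on hyperpolarization, *Hcn2* was at 77 and *Hcn3* at 6.05 per kilobase, and *Hcn4* had a mean of 1.84.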

How the data were processed

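RNA-Seq libraries of 3 WT and 3 *Anp32e*-/- MEF samples were made by the authors with a stranded total RNA kit and sequenced as pairs. Per the study's methods and the submitters' processing notes, reads were aligned to mm10 with STAR, counted with Subread featureCounts and normalized in DESeq2. The study's methods name default settings. Transcripts of 1 gene share reads in the table, which the defaults of featureCounts do not allow, so the counting options are not fully known. The signal column deposited by the authors is the mean over 6 libraries of counts divided by size factors. The other 5 columns hold their comparison (log2 fold change, standard error, Wald statistic, p-value and adjusted p-value). They were not used, and no test between genotypes was made.

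Of 42361 transcripts, 42203 were matched to a gene by RefSeq and 158 were not. The 98 Kcn symbols include 4 noncoding ones, and 1 coding gene was left out, and it and a few further members, which stay in the counts, are not reported here by name. Lengths came from GENCODE M21 for 87 members by the same transcript and otherwise by another of the gene. The lowest means fall on 6 single-read steps, which gave the size factors. For means of at most 100, written to 15 digits, all sets of 6 whole counts were searched, and a set was accepted where exactly 1 matched: 5541 protein-coding genes and 65 members were recovered, 66 genes had several matches, and the largest residual was 5.9e-14. The search was tested on simulated data. Total counts per library are unknown. Intervals are exact Poisson or conditional binomial 95% intervals and cover counting error only. A library stood apart where its interval lay wholly above that of the lowest.

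Members, classes, markers, partners and the rule for named genes (every member with a mean of at least 50, the 3 highest levels per class, and recovered members with a mean of at least 10 by library) were chosen with earlier results of these data known. Alternatives were another minimum, transcript, length, tolerance, interval and leaving out each library; halving the counts was added after seeing the data. Python 3.11.15, numpy 2.4.6, pandas 2.3.3, scipy 1.17.1, numba 0.67.0 and matplotlib 3.10.9 were used.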

Additional observations from a re-analysis of the deposited data

How the results depend on the processing

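The count of 26 members with a mean of at least 10 was 33 with a minimum of 5, 25 with the second highest transcript of each gene and 23 with a minimum of 5 per kilobase, and it fell to 16 with a minimum of 50. The median level of 18.2 per kilobase was 48.4 per kilobase of coding sequence, 18.9 with the second highest transcript and 1.15 over every member with a read. Counts by library were recovered for 65 members, for 55 when only means of at most 20 were tried and for 62 with a tolerance 10 times wider. The 24 members with libraries apart became 13 with 99% intervals and 12 with halved counts, which was added after seeing the data, and ranged from 18 to 24 when 1 library was left out. Genes with a mean over 100 have no values by library, and counts of a few reads set the limit for the others. No paired analysis was possible because the table carries no replicate numbers and no test between genotypes was made.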

Other observations

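The values of some members fell into separate clusters of libraries. The 3 highest values were those of A, B and D in 6 of the 16 members with a mean of at least 10 and values by library, and those of C, E and F in 3 of 16. Among the 1983 protein-coding genes recovered at such means, A, B and D held the 3 highest values in 23.9% and C, E and F in 20.8%, and no other set of 3 libraries did so in more than 4.54%. In library order A to F, the 6 members were *Kcnmb1* (146, 116, 3.89, 110.4, 0 and 4.4), *Kcnq5* (97.3, 82.7, 36, 67.9, 21.4 and 23.1), *Kcnj2* (52.2, 49.5, 13.6, 42.6, 7.48 and 4.4), *Kcnk6* (82.2, 121, 47.7, 108, 42.8 and 28.6), *Kcnj4* (86.7, 101, 46.7, 105, 58.8 and 55) and *Kcnk10* (35.4, 24.7, 12.7, 23.3, 8.55 and 14.3). The 3 members of the opposite order were *Kcnk1* (17.7, 20.9, 80.8, 22.3, 122 and 121), *Kcnd1* (46, 55.2, 108, 59.8, 93 and 110) and *Kcnh1* (7.07, 0, 34.1, 9.12, 35.3 and 41.8). The libraries were not assigned to a genotype or a culture, so whether the clusters follow the study's groups was not tested.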
